A study of Oikopleura dioica with 14 samples.

Results

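A stretch of consecutive gene identifiers, GSOIDG00006011001 to GSOIDG00006056001, stood out in RNA of the tunicate Oikopleura dioica because mutants for Pax37b held few of its counts. All rows of the 3 count tables with identifiers in this span were taken, which gave 43 genes of 17212 in all. The span holds 46 possible numbers, and 3 of them had no row in the 3 count tables. The stretch had been chosen for its low counts in mutant libraries, so every difference between genotypes below is a description without a test. The change with stage in wild type, which the choice did not compare, was tested. The choice set mutant counts against counts of these same wild-type libraries, so the values tested are not fully independent of it.

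The groups were whole Pax37b-/- (mutant) and Pax37b+/+ (wild-type) animals at 4, 6 and 8 hours post fertilization (hpf), with no treatment named. Parents were Pax37b+/- in each cross, single animals were genotyped from part of their lysate, and animals of like genotype were pooled before polyadenylated RNA was extracted. The sources used here give neither the mutant allele nor the number of animals in a pool. Of the 14 libraries, 4 came from 4 hpf (2 mutant, 2 wild type), 5 from 6 hpf (3 mutant, 2 wild type) and 5 from 8 hpf (3 mutant, 2 wild type). The labels name biological replicates without saying whether each had its own parents, so p-values measure the spread between these pools.

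Oikopleura dioica is a planktonic animal that filters food through a secreted house, which is built by a patterned epithelium with a field of large cells called the Fol territory. Pax3/7 genes such as Pax37b encode transcription factors with a paired domain, which in other chordates act in the dorsal neural tube, neural crest and muscle progenitors. The genome of this species is compact, and many of its genes lie in operons whose transcripts are separated by trans-splicing. None of the 17212 identifiers matched the 17178 genes of the reference table, so no name, function, place or sequence can be given for the 43 genes, and Pax37b itself was not analysed here. Whether numbers follow the order of genes on a chromosome was not tested. In whole-animal RNA, fewer cells of a type and less RNA per cell cannot be told apart.

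Library totals ran from 2803720 to 3941925 counts at 4 hpf and from 10350812 to 15682950 at the later stages. Levels are given as CPM, the counts of a gene scaled to a common library total, and 3 counts, the limit that a count of 0 allows, stand for 0.761 to 1.07 CPM at 4 hpf and 0.191 to 0.290 CPM later. Intervals and this limit cover counting error only. Libraries of the same group differed widely, and mutant replicate 3 at 8 hpf stood apart with 783 genes at 100 counts or more, against 1799 to 4645 in the other libraries of 6 and 8 hpf. CPM are not scaled to transcript length, so a fixed CPM level and the order of genes by CPM partly follow transcript length, and no gene's level is set against another's.

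Many of the 43 genes were expressed in wild type, and they fell into several sets by stage. A gene is called on in a library at 5 CPM or more, and counts below that level are called stray. At 4 hpf 22 of the 43 genes (51.2%) were on in at least 1 of the 2 wild-type libraries, at 6 hpf 14 (32.6%) and at 8 hpf 20 (46.5%). Among the 17169 identifiers outside the stretch these shares were 47.9%, 27.9% and 33.4%. In both wild-type libraries of the stage 12 genes (27.9%), 4 (9.30%) and 9 (20.9%) were on, against 25.6%, 7.05% and 9.38% outside. Across the 6 wild-type libraries 32 of the 43 genes (74.4%) were on at least once, and 62.1% of the identifiers outside. In the 8 mutant libraries only 3 genes, GSOIDG00006015001, GSOIDG00006029001 and GSOIDG00006043001, were ever on (6.98%), against 60.3% of the identifiers outside. At a level of 1 CPM in place of 5 these became 8 genes (18.6%) and 75.4%. Since the stretch was chosen for low mutant counts, nothing is read from these shares.

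**Figure D1:**
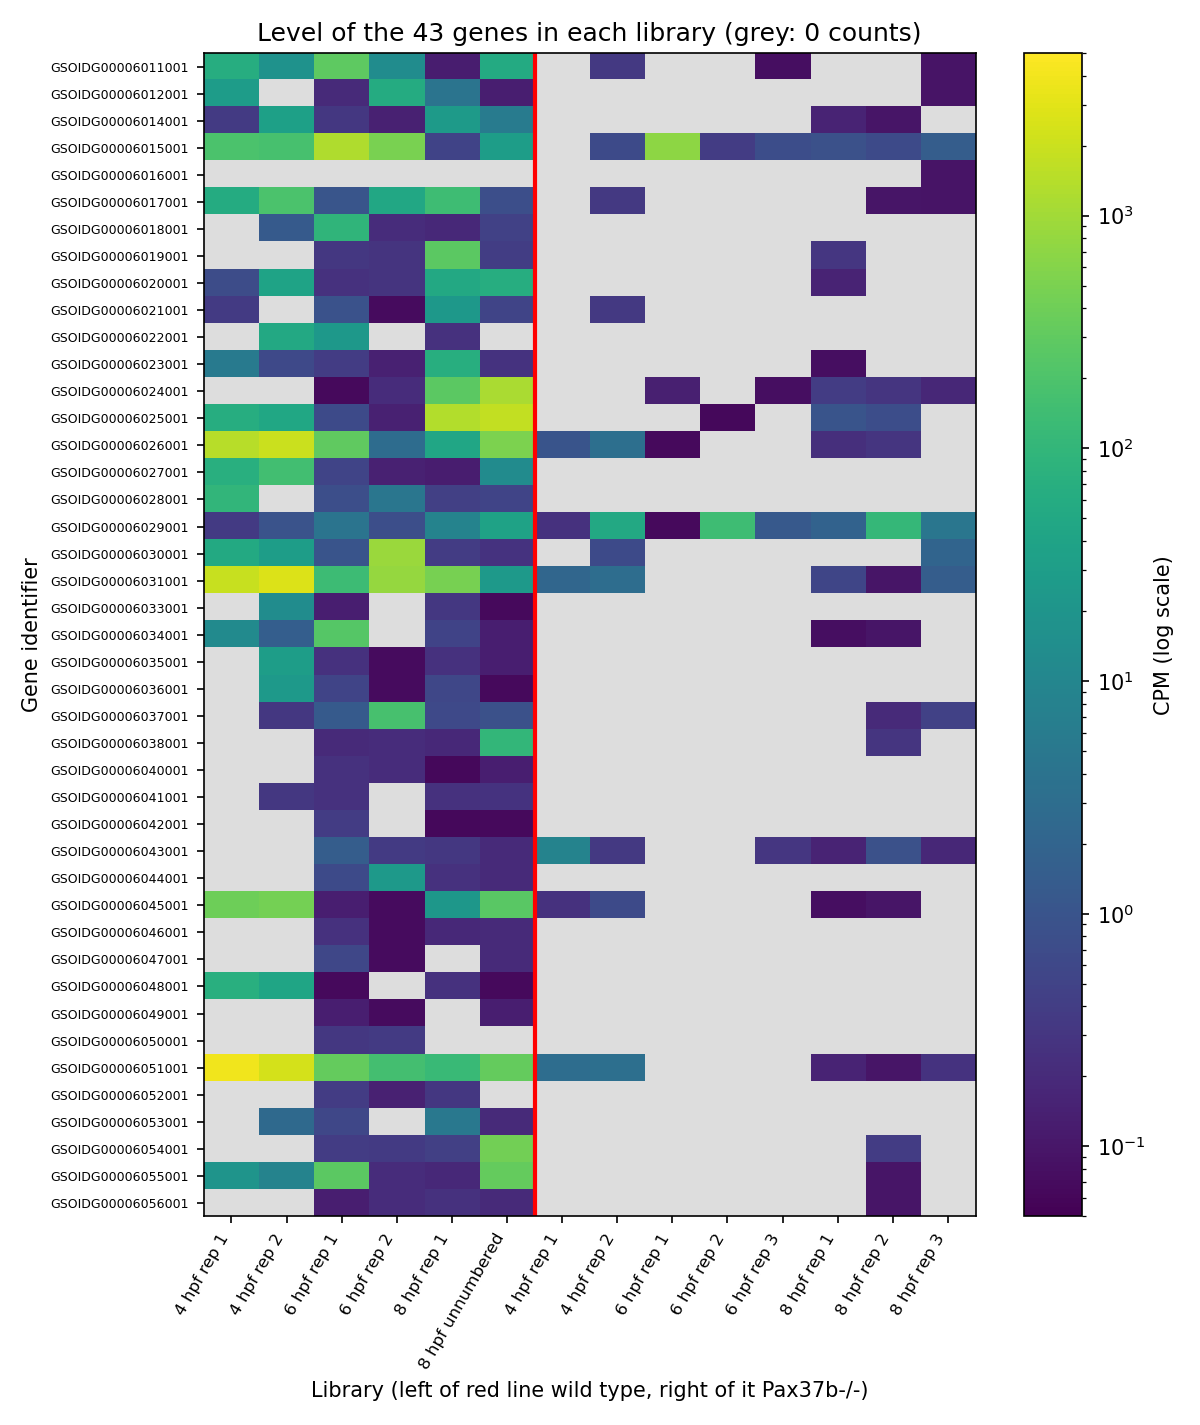
Each row is 1 of the 43 genes in number order, each column 1 library, and colour gives the level in CPM on a log scale, with grey for 0 counts. Most cells right of the red line (Pax37b-/-) are grey, 272 of 344, against 58 of 258 left of it (wild type), and GSOIDG00006015001 and GSOIDG00006029001 carry the brightest mutant cells.

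In wild type, 2 genes were on in both libraries of every stage. The first, GSOIDG00006051001, had 10803 and 7314 counts at 4 hpf, 5087 and 2227 at 6 hpf, then 1884 and 4818 at 8 hpf. Its mean level was 3092 ± 1076 CPM (SD, n = 2) at 4 hpf, 246 ± 124 CPM at 6 hpf and 221 ± 143 CPM at 8 hpf. By CPM on library totals, its wild-type values at 4 hpf lay above those of both later stages without overlap. Neither change passed the edgeR test, which uses TMM factors. The log2 change was -2.11 from 4 to 6 hpf (SE 2.02, edgeR adjusted p = 0.498) and -2.08 from 4 to 8 hpf (SE 2.02, edgeR adjusted p = 0.485). Mutant pools held 12 and 10 counts of it at 4 hpf, none at 6 hpf, then 2, 1 and 3 at 8 hpf. The second, GSOIDG00006031001, had 5344 and 8718 wild-type counts at 4 hpf, 2023 and 11217 at 6 hpf, then 7564 and 354 at 8 hpf. Its CPM on library totals was again highest at 4 hpf in both libraries, while its values at 6 and 8 hpf overlapped. This order depends on the scaling. TMM factors were 2.21 and 2.29 for wild type at 4 hpf and 0.588 for replicate 2 at 6 hpf. With CPM divided by these factors, replicate 2 at 6 hpf lay above both 4 hpf libraries. From 4 to 6 hpf its log2 change was -0.90 (SE 2.05, edgeR adjusted p = 0.772). In mutants GSOIDG00006031001 had 9 and 9 counts at 4 hpf, none at 6 hpf, then 7, 1 and 16 at 8 hpf. The wild-type mean exceeded the mutant mean 965-fold for GSOIDG00006051001 and 882-fold for GSOIDG00006031001 at 4 hpf. At 8 hpf the ratio for GSOIDG00006051001 was 1262-fold, or 685-fold without the unnumbered wild-type library. For GSOIDG00006031001 it was 361-fold at 8 hpf, but 33.8-fold without wild-type replicate 1, 689-fold without the unnumbered wild-type library and 789-fold without mutant replicate 3.

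Another 3 genes, GSOIDG00006026001, GSOIDG00006025001 and GSOIDG00006045001, were on in both wild-type libraries at 4 and at 8 hpf but not at 6 hpf. For GSOIDG00006025001 the counts were 183 and 149 at 4 hpf, 10 and 2 at 6 hpf, then 20810 and 26012 at 8 hpf. This gave 56.4 ± 12.6, 0.399 ± 0.363 and 1534 ± 293 CPM (SD, n = 2 each), with no overlap between any 2 stages. Its mutant counts were 0 in both pools at 4 hpf, 0, 1 and 0 at 6 hpf, then 13, 8 and 0 at 8 hpf. Wild type was at least 130.0-fold higher at 4 hpf, given a limit of 3 counts over both mutant libraries (at least 55.9-fold or 74.1-fold with mutant replicate 1 or 2 left out, since fewer counts then set the limit). At 8 hpf it was 2579-fold higher, or 3970-fold without mutant replicate 1 and 1719-fold without mutant replicate 3. A similar dip at 6 hpf was seen for GSOIDG00006045001, with 1082 and 1426 wild-type counts at 4 hpf, 2 and 1 at 6 hpf, then 353 and 3945 at 8 hpf. From the summed counts its level at 4 hpf was 4121 times that at 6 hpf (95% exact interval 1408 to 19995), and its level at 8 hpf was 1370 times that at 6 hpf (468 to 6646). The 8 hpf ratio was 220 without the unnumbered library and 2578 without replicate 1 of 8 hpf. Mutant pools had 1 and 2 counts of GSOIDG00006045001 at 4 hpf, 0 in each at 6 hpf, then 1, 1 and 0 at 8 hpf. The third gene, GSOIDG00006026001, had 4100 and 6206 wild-type counts at 4 hpf and 704 and 7753 at 8 hpf, but its 6 hpf libraries disagreed, with 4551 and 41. Its mutant counts were 4 and 10, then 1, 0 and 0, then 3, 3 and 0.

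Genes on in both wild-type libraries at 4 and 6 hpf but not at 8 hpf were GSOIDG00006015001 and GSOIDG00006011001. The first, GSOIDG00006015001, had 534 and 550 wild-type counts at 4 hpf, 19612 and 6827 at 6 hpf, then 8 and 460 at 8 hpf, and its mutant values are given with the exceptions below. The second, GSOIDG00006011001, which opens the stretch, had 186 and 55 wild-type counts at 4 hpf, 4425 and 192 at 6 hpf, then 2 and 839 at 8 hpf. Its mutant counts were 0 and 1 at 4 hpf, 0, 0 and 1 at 6 hpf, then 0, 0 and 1 at 8 hpf. At 8 hpf both genes therefore had many counts in the unnumbered wild-type library and few in replicate 1.

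Genes on in both wild-type libraries at 4 hpf and at no later stage numbered 5, namely GSOIDG00006017001, GSOIDG00006027001, GSOIDG00006030001, GSOIDG00006048001 and GSOIDG00006055001. Of these, GSOIDG00006048001 was under 5 CPM in every later library as well. It had 204 and 139 wild-type counts at 4 hpf, 1 and 0 at 6 hpf, then 4 and 1 at 8 hpf, a summed level at 4 hpf 1691 times that at 6 hpf (95% exact interval 301 to 66968), and it had 0 counts in all 8 mutant libraries. The ratio rests on 1 count at 6 hpf, and was 880 without replicate 2 of 6 hpf and at least 270.3 without replicate 1. For GSOIDG00006030001 the counts were 154 and 96 at 4 hpf, 15 and 12579 at 6 hpf, then 6 and 4 at 8 hpf in wild type, so its high level at 6 hpf came from replicate 2. Mutant pools had 0 and 2 counts of GSOIDG00006030001 at 4 hpf, 0 in each at 6 hpf, then 0, 0 and 22 at 8 hpf, where the last pool lay above both wild-type libraries. For GSOIDG00006055001 the wild-type counts were 54 and 27, then 4177 and 3, then 3 and 4844, and its only mutant count was 1 at 8 hpf. For GSOIDG00006017001 the wild-type counts were 164 and 594, then 16 and 704, then 2203 and 12, and no mutant library held more than 1. For GSOIDG00006027001 they were 200 and 477, then 8 and 2, then 2 and 194, and all 8 mutant libraries were at 0. Except for GSOIDG00006048001, then, these genes were on in 1 of the 2 wild-type libraries at a later stage.

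At 8 hpf alone, 4 genes were on in both wild-type libraries: GSOIDG00006014001, GSOIDG00006020001, GSOIDG00006024001 and GSOIDG00006029001. The clearest, GSOIDG00006024001, had 0 counts in both wild-type libraries at 4 hpf, 1 and 3 at 6 hpf, then 4383 and 17276 at 8 hpf. Its 8 hpf mean of 718 ± 620 CPM (SD, n = 2) was at least 1422-fold higher than at 4 hpf, given a limit of 3 counts over both 4 hpf libraries. With 1 library left out, this bound was at least 553-fold (without the unnumbered 8 hpf library), 2290-fold (without replicate 1 of 8 hpf), 751-fold or 671-fold (without replicate 1 or 2 of 4 hpf). In mutants it had no count at 4 hpf, 2, 0 and 1 at 6 hpf, then 5, 3 and 2 at 8 hpf, 2501-fold below wild type at 8 hpf, or 973-fold without the unnumbered wild-type library and 4028-fold without wild-type replicate 1. At 6 hpf, where the gene was nearly without counts in either genotype, its mutant and wild-type values overlapped. For GSOIDG00006020001 the wild-type counts were 2 and 126, then 4 and 4, then 809 and 981. For GSOIDG00006014001 they were 1 and 110, then 5 and 2, then 417 and 89. Both were thus on in wild-type replicate 2 at 4 hpf as well, and no mutant library had more than 2 counts of either.

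**Figure D2:**
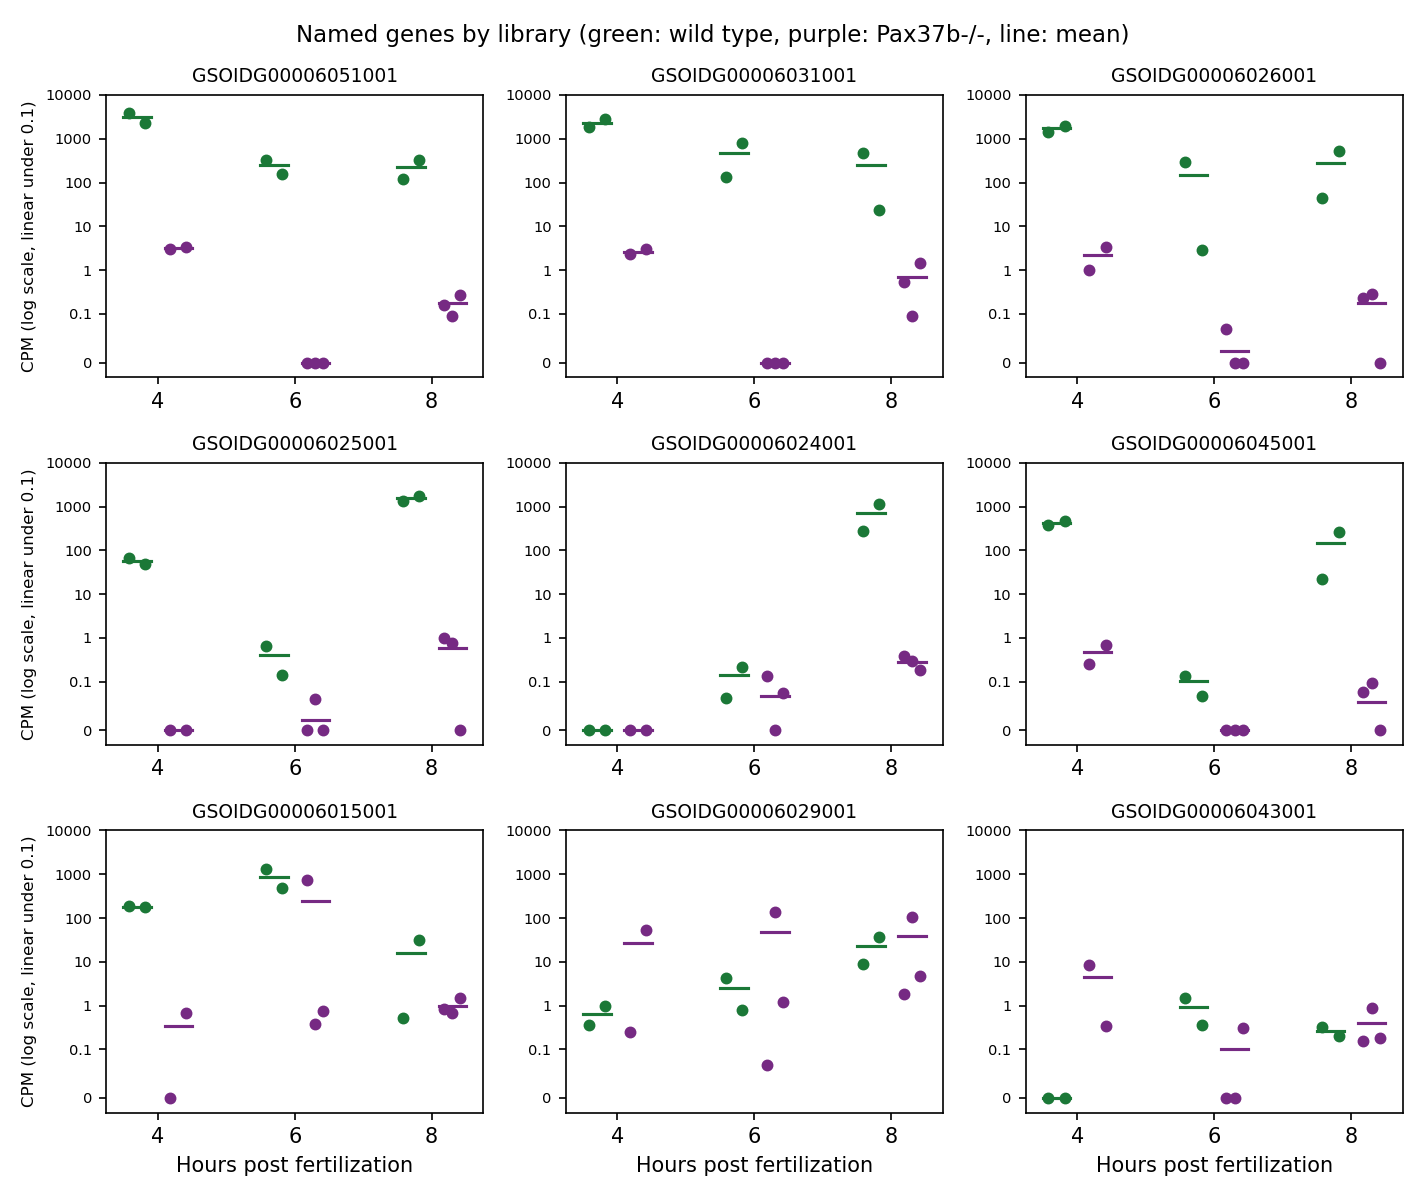
Each panel shows 1 gene by its number, with CPM on a log scale (linear under 0.1) against hours post fertilization, 1 point per library and a line at each group mean. Green wild-type points lie far above purple Pax37b-/- points for GSOIDG00006051001, GSOIDG00006031001 and GSOIDG00006025001 at every stage they are on, whereas GSOIDG00006015001, GSOIDG00006029001 and GSOIDG00006043001 have mutant points among or above wild type.

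Wild-type changes with stage were then tested over all genes, on the 6 wild-type libraries with edgeR's quasi-likelihood test. The filter on low counts passed 25 of the 43 genes, among 9334 in all. From 4 to 6 hpf 0 of the 25 passed an adjusted p of 0.05 (smallest 0.266), where 0.0214% of all genes tested passed. From 6 to 8 hpf 0 passed (smallest 0.272, all genes 0.0214%), and from 4 to 8 hpf 0 passed (smallest 0.189, all genes 0.129%). Unadjusted edgeR p-values under 0.05 were found for 4, 5 and 5 of the 25, and for 1747, 1510 and 2354 of all 9334 genes tested. limma-voom called 1, 3 and 1 of the 25 (4%, 12% and 4%), where it called 1.04%, 4.36% and 4.75% of all genes tested. DESeq2, which was given all identifiers, called 10 of 35, 13 of 28 and 10 of 37 (28.6%, 46.4% and 27.0%), where it called 18.6%, 43.0% and 27.1% of all. From 4 to 8 hpf the smallest unadjusted edgeR p of the 25 belonged to GSOIDG00006024001, without a count at 4 hpf. Its log2 change was 16.44 (SE 4.46, edgeR adjusted p = 0.189). That change passed with DESeq2 (adjusted p = 2.55e-09) and with limma-voom (adjusted p = 0.000297). When counts for the change from 4 to 6 hpf were simulated with the spread fitted here, edgeR called 0 of 50 genes changed 256-fold, so that the absence of calls does not show an absence of change.

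The smallest unadjusted p from 6 to 8 hpf belonged to GSOIDG00006025001, with a log2 change of 11.92 (SE 3.01, edgeR adjusted p = 0.272), and the next to GSOIDG00006024001, with 12.54 (SE 3.87, edgeR adjusted p = 0.272). From 4 to 6 hpf it belonged to GSOIDG00006048001, with a log2 change of -8.86 (SE 3.20, edgeR adjusted p = 0.266). For GSOIDG00006045001 the change was -10.36 from 4 to 6 hpf (SE 4.45, edgeR adjusted p = 0.266). From 6 to 8 hpf it was 10.64 (SE 4.50, edgeR adjusted p = 0.272). The wide ratios given above for these 2 genes therefore did not pass edgeR. From 4 to 6 hpf GSOIDG00006025001 gave a log2 change of -5.54 (SE 2.33, edgeR adjusted p = 0.266), and from 4 to 8 hpf one of 6.39 (SE 2.41, edgeR adjusted p = 0.189). Over all genes tested, the median log2 change was 0.39 from 4 to 6 hpf, -0.11 from 6 to 8 hpf and 0.55 from 4 to 8 hpf, and over the 25 it was -0.51, 1.14 and 0.37. These medians move with the scaling, as RLE size factors gave 2.49, 0.06 and 2.70 over all genes and upper-quartile factors 1.14, -2.17 and -0.10. The changes of GSOIDG00006025001 in each comparison and of GSOIDG00006024001 from 6 to 8 hpf kept their direction under every alternative that gave a value. From 6 to 8 hpf both passed with the other tools run, GSOIDG00006025001 at an adjusted p of 1.38e-07 with DESeq2 and 0.00468 with limma-voom, and GSOIDG00006024001 at 3.91e-06 and 0.00468. The change of GSOIDG00006025001 from 4 to 8 hpf passed with DESeq2 (adjusted p = 0.000135) and not with limma-voom (adjusted p = 0.205). Over all alternatives the adjusted p ran up to 0.724 and 0.777 for the 6 to 8 hpf changes and up to 0.455 for the 4 to 8 hpf change.

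Many of the 43 genes were on in only 1 of the 2 wild-type libraries of a stage. Of the genes on in either library, 54.5% were on in both at 4 hpf, 28.6% at 6 hpf and 45.0% at 8 hpf, against 53.4%, 25.2% and 28.1% outside the stretch. In all, 16 genes were on in 1 wild-type library of at least 1 stage and in both libraries of none.

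At 4 hpf 3 genes of this kind, GSOIDG00006033001, GSOIDG00006035001 and GSOIDG00006036001, were on in wild-type replicate 2 alone, with 43, 97 and 79 counts there and 0 in replicate 1. At the later stages they had 0 to 9 wild-type counts. The opposite library carried GSOIDG00006028001, which had 273 and 0 wild-type counts at 4 hpf, then 12 and 64 at 6 hpf, then 7 and 8 at 8 hpf. All 4 genes had no count in any mutant library. At 4 and 6 hpf GSOIDG00006022001 was on in different wild-type replicates, with 0 and 163 counts, then 352 and 0, then 4 and 0, and it also had no mutant count. Wild-type replicate 1 alone carried GSOIDG00006034001 at both of these stages. Its wild-type counts were 34 and 5, then 3734 and 0, then 8 and 2. Its only mutant counts were 1 each in replicates 1 and 2 at 8 hpf.

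At 6 hpf alone, 3 genes were on in a wild-type library. The counts of GSOIDG00006018001 were 0 and 4, then 1437 and 3, then 3 and 7, those of GSOIDG00006037001 were 0 and 1, then 20 and 2467, then 10 and 13, and those of GSOIDG00006044001 were 0 and 0, then 10 and 349, then 4 and 3. The high library was replicate 1 for the first and replicate 2 for the others. Mutants held 0 counts of GSOIDG00006018001 and GSOIDG00006044001, and 0, 2 and 5 of GSOIDG00006037001 at 8 hpf.

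At 8 hpf alone, 5 of the 16 genes were on in a wild-type library. Replicate 1 carried GSOIDG00006019001, with 4236 and 6 counts, GSOIDG00006021001, with 370 and 8, and GSOIDG00006053001, with 79 and 3. The unnumbered library carried GSOIDG00006038001, with 3 and 1502 counts, and GSOIDG00006054001, with 7 and 6402. At 4 and 6 hpf these 5 genes had 0 to 14 wild-type counts. In mutants GSOIDG00006053001 had no count, and the others had at most 4. Finally GSOIDG00006023001 was on in wild-type replicate 1 at 4 hpf, with 16 and 2 counts, and again at 8 hpf, with 1064 and 4, and GSOIDG00006012001 is given below with the ends of the stretch. Neither wild-type library was the higher throughout. None of these 16 genes exceeded 5 counts in a mutant library.

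The remaining 11 genes were never on in wild type, and they were GSOIDG00006016001, GSOIDG00006040001, GSOIDG00006041001, GSOIDG00006042001, GSOIDG00006043001, GSOIDG00006046001, GSOIDG00006047001, GSOIDG00006049001, GSOIDG00006050001, GSOIDG00006052001 and GSOIDG00006056001. Of these, 10 have numbers from GSOIDG00006040001 upwards. A split between GSOIDG00006038001 and GSOIDG00006040001, made after the values were seen, left 25 of 26 genes below it on in at least 1 wild-type library and 7 of 17 above it. The gene GSOIDG00006016001 had no count in any wild-type library and an estimate of 0.5 in mutant replicate 3 at 8 hpf, the only fractional estimate among the 43 genes in any library. Apart from GSOIDG00006016001 and GSOIDG00006043001, the 11 genes had at most 9 counts in any wild-type library. Wild-type replicate 1 at 6 hpf had 2 to 23 counts of each of them other than GSOIDG00006016001, and all 3 mutant pools of that stage had 0 counts of each other than GSOIDG00006043001. Over all 8 mutant libraries only GSOIDG00006016001, GSOIDG00006043001 and GSOIDG00006056001 of the 11 had a count.

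Genes under 5 CPM in every library of a stage are described here by whether they had any count. At 6 hpf 28 of the 43 genes stayed under 5 CPM in all 5 libraries. Of these, 27 (96.4%) had a count in at least 1 wild-type library and 22 (78.6%) in both, while 3 (10.7%) had a count in at least 1 of the 3 mutant libraries and 0 in every one. The 3 were GSOIDG00006024001, GSOIDG00006025001 and GSOIDG00006043001, with 3, 1 and 4 counts in all. Outside the stretch, 8791 identifiers met the same condition, and 89.4% had a count in wild type and 85.1% in mutants. At 8 hpf 21 of 23 such genes (91.3%) had a count in wild type and 7 (30.4%) in mutants, against 89.3% and 94.8% of 9783 identifiers outside. At the shallower 4 hpf stage the shares were 26.3% and 5.26% of 19 genes, against 28.2% and 36.7% of 7551 outside. Because the choice of the stretch used low mutant counts, nothing is read from these shares.

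**Figure D3:**
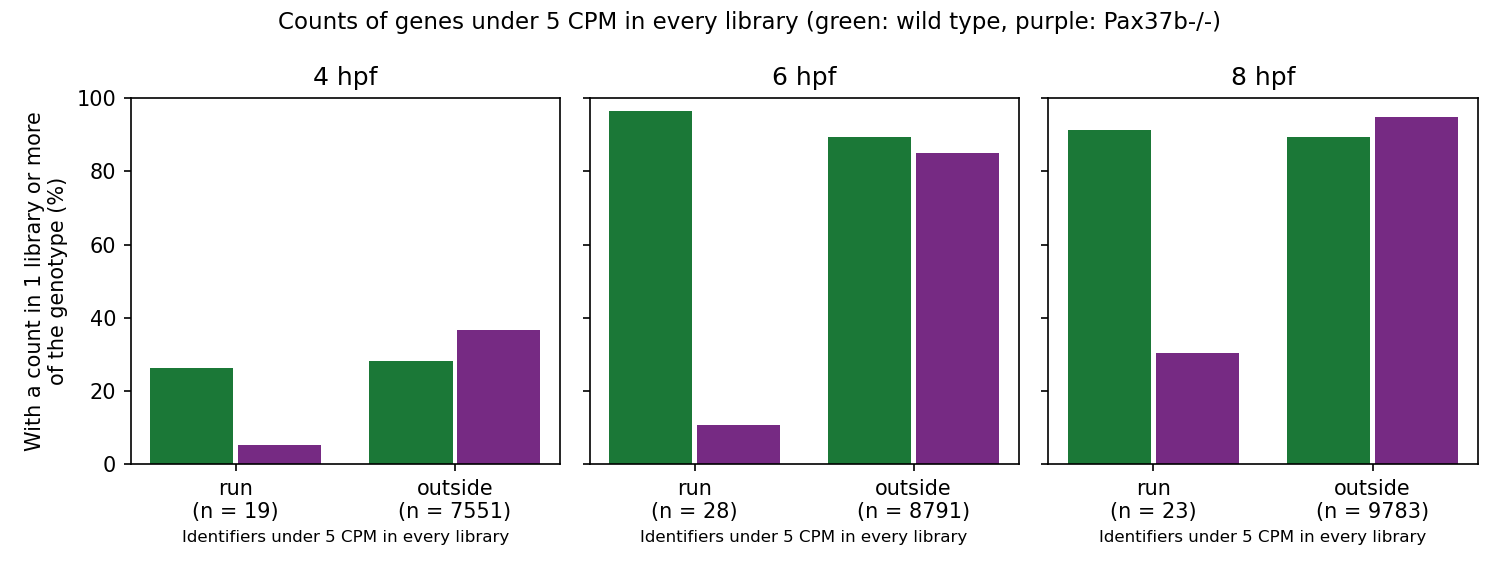
Bars give the percentage of identifiers with a count in 1 library or more of a genotype (green wild type, purple Pax37b-/-), among identifiers under 5 CPM in every library of the stage. At 6 hpf the bars are 96.4% and 10.7% in the stretch, which was chosen for low mutant counts, and 89.4% and 85.1% outside it.

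Mutant counts were rare but not absent. In the 8 mutant libraries 272 of 344 values (43 genes in each library) were 0 (79.1%), 48 were 1 to 5 counts, 18 were 6 to 30 and 6 were above 30. In the 6 wild-type libraries 58 of 258 values were 0 (22.5%). Per mutant library 6.98% to 39.5% of the 43 genes had a count, per wild-type library 46.5% to 97.7%, while 55.7% to 93.6% of identifiers outside the stretch had one in mutants. No count in any mutant library was found for 18 genes: GSOIDG00006018001, GSOIDG00006022001, GSOIDG00006027001, GSOIDG00006028001, GSOIDG00006033001, GSOIDG00006035001, GSOIDG00006036001, GSOIDG00006040001, GSOIDG00006041001, GSOIDG00006042001, GSOIDG00006044001, GSOIDG00006046001, GSOIDG00006047001, GSOIDG00006048001, GSOIDG00006049001, GSOIDG00006050001, GSOIDG00006052001 and GSOIDG00006053001. Another 17 never exceeded 5 mutant counts, and 5 peaked between 6 and 30 (GSOIDG00006025001, GSOIDG00006026001, GSOIDG00006030001, GSOIDG00006031001 and GSOIDG00006051001).

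**Figure D4:**
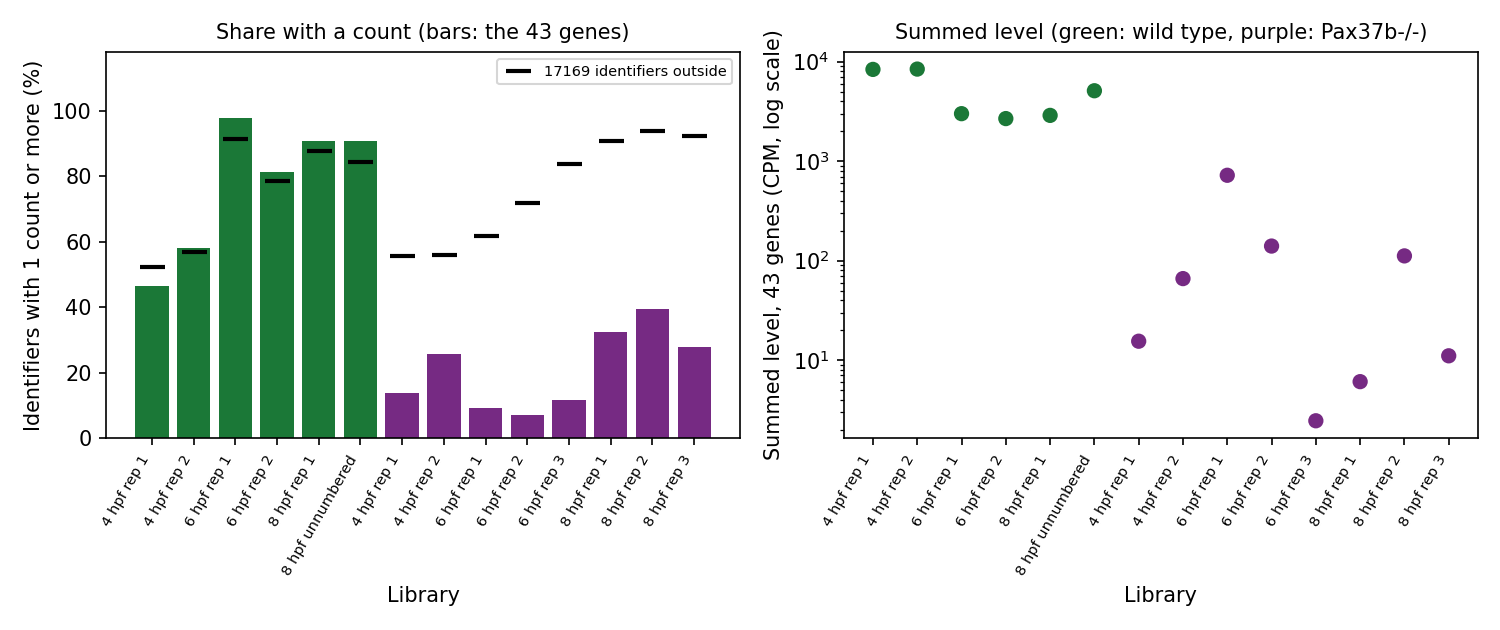
Left, bars give the percentage of the 43 genes with 1 count or more in each library, and black marks give the same for the 17169 identifiers outside the stretch. Right, the summed level of the 43 genes in CPM on a log scale lies at 2676 CPM or more in every wild-type library (green) and at 720 CPM or less in every Pax37b-/- library (purple).

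At 6 hpf, GSOIDG00006031001 and GSOIDG00006051001 were on in both wild-type libraries and had 0 counts in all 3 mutant pools. With 0 counts there but on in only 1 wild-type library were GSOIDG00006012001, GSOIDG00006017001, GSOIDG00006018001, GSOIDG00006022001, GSOIDG00006030001, GSOIDG00006034001, GSOIDG00006037001, GSOIDG00006044001 and GSOIDG00006055001. At any wild-type level, 83.7% of the 43 genes and 7.98% of identifiers outside had no mutant count at 6 hpf. Given how the stretch was chosen, nothing is read from this.

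Every mutant library lay below every wild-type library of its stage for 16 of the 43 genes at 4 hpf, 32 at 6 hpf and 32 at 8 hpf. Over all identifiers with a count at the stage, 15.5%, 17.0% and 6.28% did so. Without mutant replicate 3 of 8 hpf, the library that stood apart, 33 genes did so at that stage, and 23 in place of 19 had no mutant count there. Since the genes had been chosen on this contrast, nothing is read from the difference. With all libraries thinned to 2803720 counts, 15 of 29, 16 of 37 and 16 of 37 genes with a count did so. Beside them stood 14.8%, 8.97% and 6.36% of all identifiers with a count after thinning. Without thinning, 12 genes were lower in every mutant library at all 3 stages, namely GSOIDG00006011001, GSOIDG00006014001, GSOIDG00006017001, GSOIDG00006020001, GSOIDG00006023001, GSOIDG00006025001, GSOIDG00006026001, GSOIDG00006027001, GSOIDG00006031001, GSOIDG00006045001, GSOIDG00006051001 and GSOIDG00006055001. Of the 13185 identifiers with a count at each stage, 0.319% (42) did so, the 12 included. At 4 hpf 14 genes had no count in either genotype.

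The first exception was GSOIDG00006015001. At 4 hpf it followed the other genes, with 0 and 2 mutant counts where wild type had 534 and 550. At 6 hpf mutant replicate 1 had 10556 counts (720 CPM), between the wild-type libraries with 19612 and 6827 (1287 and 486 CPM), while mutant replicates 2 and 3 had 6 and 10. At 8 hpf the mutant counts were 11, 7 and 16, against 8 and 460 in wild type, so the genotypes overlapped. In mutant replicate 1 at 6 hpf, GSOIDG00006015001 made up 99.96% of all counts of the stretch, and only 3 other genes of the 43 had a count there.

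The second exception, GSOIDG00006029001, was high in mutant replicate 2 at each stage. That library had 157 counts at 4 hpf, 2158 at 6 hpf and 1107 at 8 hpf, or 52.8, 140 and 107 CPM. The other mutant libraries had 1 at 4 hpf, 1 and 16 at 6 hpf, then 24 and 51 at 8 hpf, the last being 4.65 CPM. Wild type had 1 and 3 counts at 4 hpf, 64 and 11 at 6 hpf, then 136 and 557 at 8 hpf. At every stage the highest library was a mutant one and the lowest was also a mutant one, so wild-type values lay within the mutant range. The labels do not say that pools with the same replicate number share parents.

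The third exception, GSOIDG00006043001, had 34 and 1 counts in mutants at 4 hpf against 0 and 0 in wild type, and was the only gene with every mutant library above wild type at a stage. At 6 hpf the order was the opposite, as mutants had 0, 0 and 4 counts and wild type had 23 and 5. At 8 hpf mutants had 2, 9 and 2 counts and wild type 5 and 3, which overlapped. Only mutant replicate 1 at 4 hpf reached 5 CPM, with 8.63 CPM. At 10 CPM in place of 5, or with CPM scaled by TMM factors, GSOIDG00006043001 was on in no mutant library. Genes of the stretch on in a mutant library numbered 2, 2 and 1 at 4, 6 and 8 hpf. Each was on in only 1 mutant library of the stage. Outside the stretch, 52.9% of identifiers on in any mutant library at 4 hpf were on in only 1. The shares at 6 and 8 hpf were 55.4% and 71.5%.

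The ends of the stretch differed in how sharply they were set. At the low end GSOIDG00006011001 has been described, and GSOIDG00006012001 had 81 and 0 wild-type counts at 4 hpf, 3 and 842 at 6 hpf, then 66 and 2 at 8 hpf, with a single mutant count in all. Just outside, GSOIDG00006010001 had 158 and 9 mutant counts against 158 and 49 in wild type at 4 hpf, 2, 90 and 20 against 17 and 4 at 6 hpf, then 20, 25 and 22 against 2115 and 156 at 8 hpf. The next gene outwards, GSOIDG00006009001, had 685 and 940 mutant counts against 4712 and 5798 at 4 hpf and 11, 8 and 18 against 14246 and 5918 at 6 hpf. At 8 hpf it had 77, 5639 and 80 against 8162 and 10370, where mutant replicate 2 reached 545 CPM and overlapped wild type. Further out, GSOIDG00006006001, named after its values were seen, had at most 28 counts in any mutant library against 19329 and 9531 in wild type at 6 hpf and 30030 and 28518 at 8 hpf. It had 0 counts in all 4 libraries at 4 hpf.

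At the high end GSOIDG00006055001 was followed by GSOIDG00006056001, which had no count at 4 hpf, 2 and 3 wild-type counts at 6 hpf, then 4 and 3 at 8 hpf, with 1 mutant count in all. Its difference between genotypes rests on fewer than 5 counts per library. Beyond it, GSOIDG00006057001 had 121 and 70 mutant counts at 4 hpf against 6 and 136 in wild type. At 6 hpf GSOIDG00006058001 had 1, 4226 and 4 mutant counts, while its wild-type counts were 7 and 1494. For both, the genotypes overlapped at every stage.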

How the data were processed

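Per the labels' protocols, RNA of pooled whole animals was made into libraries with a low-input kit for single cells. For each stage the authors deposited a table of estimated counts by gene and library, without depth scaling. The tools named, per the submitters' processing notes, are kallisto 0.46.0 and DESeq2, while index and annotation are not given in the sources. From 4.37% to 11.3% of estimated counts per library were fractional, and they were rounded to whole numbers (0.5 upwards). A wild-type column at 8 hpf has a number that no titled sample has and was kept as an unnumbered replicate of its group.

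CPM used library totals. Wild-type stage changes were fitted on the 6 wild-type libraries with edgeR 4.0.16 in R 4.3.3 (filterByExpr, TMM factors, quasi-likelihood F test, two-sided, Benjamini-Hochberg adjustment over all genes tested, threshold 0.05). The SE is the log2 change divided by the square root of F. Ratios with few counts have exact conditional intervals. Alternatives were RLE and upper-quartile factors, no filter, a mean of 5 CPM, DESeq2 1.42.0, limma-voom (limma 3.58.1), 1 fit of all 14 libraries, a replicate block, levels of 1 and 10 CPM, TMM-scaled CPM, thinning, counts before rounding, and leaving out each library. In simulated counts with a biological coefficient of variation of 0.2, the step for the 4 to 6 hpf change called 48 of 50 genes changed 4-fold. It also called 9 of 9134 unchanged genes. The common coefficient fitted to the 6 wild-type libraries was 1.52, so this simulation checks the step and not its power here.

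The genes, the level of 5 CPM and the tests were chosen with earlier results of these data known. The rule named with values the exceptions, the 10 genes with the highest mean wild-type CPM, the 3 highest per stage, the genes at the ends, and those with no wild-type count. Values of the other genes were added by class after they were seen, as were the folds with 1 library left out. Other tables and plots were made with Python 3.11.15, pandas 2.3.3 and matplotlib 3.10.9.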

Additional observations from a re-analysis of the deposited data

Results flagged for a closer look

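The gene GSOIDG00006043001 was above wild type in all mutant libraries of a stage and below it in all those of another. Its mutant mean was above the wild-type mean by 4.48 CPM at 4 hpf, with 34 and 1 counts against 0 and 0. At 6 hpf the mutant minus wild-type difference was -0.83 CPM, with 0, 0 and 4 counts against 23 and 5. The difference between the stages was not tested, and apart from the library with 34 counts these values rest on at most 23 counts.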

How the results depend on the processing

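The numbers of genes without a mutant count moved by less than 1.5 times under every alternative run, ranging over 32 to 37 (4 hpf), 36 to 39 (6 hpf) and 19 to 27 (8 hpf). Genes below wild type in every mutant library numbered 16 at 6 hpf and 16 at 8 hpf after thinning, against 32 and 32, and 16 to 24, 32 to 40 and 32 to 36 at 4, 6 and 8 hpf when 1 library was left out. At 1 CPM in place of 5, 7 genes in place of 4 were on in both wild-type libraries at 6 hpf, and 8 in place of 3 reached the level in a mutant library. At 10 CPM, and at 5 CPM on TMM-scaled library sizes, 2 genes reached it, without GSOIDG00006043001. With 1 wild-type library left out, 16 to 18 genes were on (4 hpf), 9 and 9 (6 hpf) and 14 to 15 (8 hpf), since only 1 library then had to pass. With 1 mutant library left out, 2 to 3 genes were on in a mutant library. Stage calls among the 43 genes were 10, 13 and 10 with DESeq2 and 1, 3 and 1 with limma-voom from 4 to 6, 6 to 8 and 4 to 8 hpf, beside 18.6%, 43.0% and 27.1% of all genes tested with DESeq2 and 1.04%, 4.36% and 4.75% with limma-voom, and the cause was not tested. From 4 to 8 hpf RLE size factors called 1 gene, GSOIDG00006024001, as did the fit without wild-type replicate 1 of 8 hpf, and leaving out single libraries gave 0 to 1 calls there and 0 in the other comparisons. The lone library of a stage was then assumed to vary like the others. A replicate block could be fitted from 4 to 6 hpf and called 0 genes. The labels do not say what a number shares. Wild-type replicate 1 minus 2 correlated at 0.0015 between 4 and 6 hpf over 9334 genes, a single check that covers no mutant or 8 hpf library, and comparisons with 8 hpf shared fewer than 2 numbers.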
